A study of Rattus norvegicus with 6 samples.

Results

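The Id family comprises 4 genes, Id1, Id2, Id3 and Id4, and was followed in rat neuronal progenitor cells treated with corticosterone or vehicle. Its members were taken as the probe sets whose platform gene symbol is one of these 4 names, which gave 8 of the 31099 probe sets on the array: 1 for Id1, 2 for Id2, 1 for Id3 and 4 for Id4. The family itself was chosen on the strength of its response in these same arrays, so the values of its members are given as a description with no test.

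Id proteins are helix-loop-helix proteins that lack the basic region by which other members of that class touch DNA. They pair with the E proteins Tcf3, Tcf4 and Tcf12 and so withhold them from the tissue-restricted basic helix-loop-helix (bHLH) factors that drive neuronal and oligodendrocyte differentiation. Bone morphogenetic proteins (BMPs) switch Id genes on through Smad transcription factors, and in the developing cortex high Id levels are known from dividing precursors and from cells entering the astrocyte lineage.

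Cells came from cerebral cortices of rat embryos at E15.5 and grew on fibronectin with 20 ng/ml basic fibroblast growth factor, a mitogen, which vehicle and hormone cultures both received. Treatment lasted 48 h and was either 1 µM corticosterone, a glucocorticoid made by the rat adrenal, or its solvent dimethyl sulfoxide (vehicle). The 6 RNA samples, each on its own Affymetrix array, form 3 couples, a couple being 1 vehicle and 1 corticosterone sample. The labels used here name no strain, sex or number of embryos. They do not say whether each couple was a culture of its own, so p-values measure only the spread between these samples, which may be technical. In such bulk RNA, more cells that express a gene and more transcript per cell cannot be told apart.

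The values are signal intensities made with MAS5, scaled by the authors so that the mean without the lowest and highest values was 500.2 on each array. Median signals lay between 108 and 134, and between 75.3% and 80.7% of probe sets lay above a background signal of 22.8, which 95% of the values of 27 bacterial control probe sets did not exceed. With 6 arrays, precision is limited by their number. Fold changes are differences of log2(signal + 28.6) between corticosterone and vehicle, fitted with limma with the couple as a term, and the dimmest 40% of probe sets were not tested. The 8 Id probe sets were among the 18625 that were tested.

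The promoter stretches below show the genes with the most similar profiles, Id1 and Id3, beside Id2, whose signals moved least. Each runs 5′ to 3′ from 250 to 51 bases before the RefSeq transcript start in build GRCr8, since further RefSeq transcripts of Id1 and Id3 begin in the last 50. Capitals mark matches to TATAAA, the TATA box, or to CANNTG, the E-box that bHLH dimers bind.
Id1, chr3:161671314-161671513, plus strand: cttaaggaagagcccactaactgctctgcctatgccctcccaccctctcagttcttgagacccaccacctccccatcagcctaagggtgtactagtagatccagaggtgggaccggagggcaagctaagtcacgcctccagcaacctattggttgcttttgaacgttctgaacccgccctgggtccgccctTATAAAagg
Id3, chr5:153656041-153656240, plus strand: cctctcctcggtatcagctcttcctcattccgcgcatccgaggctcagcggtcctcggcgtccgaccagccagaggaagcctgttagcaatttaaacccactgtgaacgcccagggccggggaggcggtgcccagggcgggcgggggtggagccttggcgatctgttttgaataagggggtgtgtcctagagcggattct
Id2, chr6:47471046-47471245, minus strand: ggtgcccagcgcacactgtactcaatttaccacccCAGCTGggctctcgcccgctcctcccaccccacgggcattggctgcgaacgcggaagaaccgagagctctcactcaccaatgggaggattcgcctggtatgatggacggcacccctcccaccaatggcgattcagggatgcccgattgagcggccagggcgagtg

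These stretches were searched on both strands for TATAAA and for the E-box CANNTG, for AGAACA, the half-site of the glucocorticoid receptor, for GGCGCC, a GC-rich core bound by Smads, and for CAGAC, another Smad element. The motifs do not overlap in these stretches. Id1 held the 1 TATAAA, which begins 59 bases before the start, and Id2 the 1 CANNTG, at 215 bases. None of the 5 motifs was found in the stretches of Id3 and Id4. Of 33469 promoter stretches of the same length, 9.98% held TATAAA, 57.9% CANNTG, 14.2% AGAACA, 6.56% GGCGCC and 36.6% CAGAC. These are matches of letters in a short window and describe no bound factor, and the best-known BMP response element of Id1 lies further upstream.

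Id3 stood furthest apart of the 4 genes. With vehicle its signal was 541 in couple 1, 802 in couple 2 and 457 in couple 3, and with corticosterone 3231, 2992 and 1241, couples being listed in this order throughout. The lowest corticosterone signal lay above the highest vehicle signal. Means were 600.2 ± 180.0 (SD, n = 3 arrays per group, as for the signals that follow) and 2488 ± 1086. The ratio within couples was 5.97, 3.73 and 2.71, so couple 1 showed the widest gap and couple 3 the narrowest. On the log2 scale the change was 1.92 ± 0.16 (SE, which limma draws towards that of probe sets of similar signal).

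Id1 was about doubled, with a narrower spread. Vehicle signals were 1857, 2135 and 1647, and corticosterone signals 4150.1, 4297 and 2949, again with no overlap. Means were 1879.7 ± 245 and 3799 ± 739, ratios within couples 2.24, 2.01 and 1.79, and the log2 change 0.99 ± 0.07 (SE). The Id1 and Id3 probe sets carry the suffix that Affymetrix uses for sets matching several transcripts of 1 gene, so neither separates isoforms.

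For Id4 the 4 probe sets gave changes of similar size that differed between couples. The brightest, 1394022_at, read 521, 1079 and 877 with vehicle and 1297, 1822 and 1787 with corticosterone, without overlap. Its means were 826 ± 282 and 1635 ± 293, and its log2 change was 1.00 ± 0.10 (SE). Here couple 2 had the smallest ratio, 1.69, against 2.49 and 2.04 in couples 1 and 3.

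The dim probe set 1385923_at read 51, 96.8 and 53.6 with vehicle and 139.7, 276 and 142 with corticosterone. Its groups did not overlap, its ratios were the most even of the 8 probe sets (2.74, 2.85 and 2.66), and its log2 change was 1.14 ± 0.17 (SE). Probe set 1375120_at read 109, 95.1 and 103 and then 269.9, 209.7 and 161, a log2 change of 0.86 ± 0.17 (SE), also without overlap.

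The remaining Id4 probe set, 1375183_at, read 192, 320.0 and 306 with vehicle and 534, 618 and 319 with corticosterone. Couple 3 hardly differed there, with a ratio of 1.05 against 2.78 and 1.93, and the groups overlapped. Its log2 change of 0.77 ± 0.19 (SE) was the lowest of the 4, and became 1.12 without couple 3 and 0.47 without couple 1. In couple 3, then, the Id4 probe sets read ratios from 1.05 to 2.66.

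Id2 showed the smallest differences, and its probe sets disagreed. The brighter one, 1375532_at, read 2032, 3809 and 2975 with vehicle and 2758, 5049.6 and 3240.0 with corticosterone. Each corticosterone array lay above its own vehicle array (ratios 1.36, 1.33 and 1.09), but the groups overlapped, and the log2 change was 0.32 ± 0.07 (SE). The other, 1368870_at, read 647, 412 and 389 and then 880.5, 579 and 297, with ratios of 1.36, 1.41 and 0.763. Its change of 0.18 ± 0.15 (SE) pointed up in couples 1 and 2 and down in couple 3, and was 0.45 without couple 3, 0.05 without couple 1 and 0.03 without couple 2. The probe sets also ordered the couples differently: among vehicle arrays couple 1 was the brightest by 1368870_at and the dimmest by 1375532_at.

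**Figure D1:**
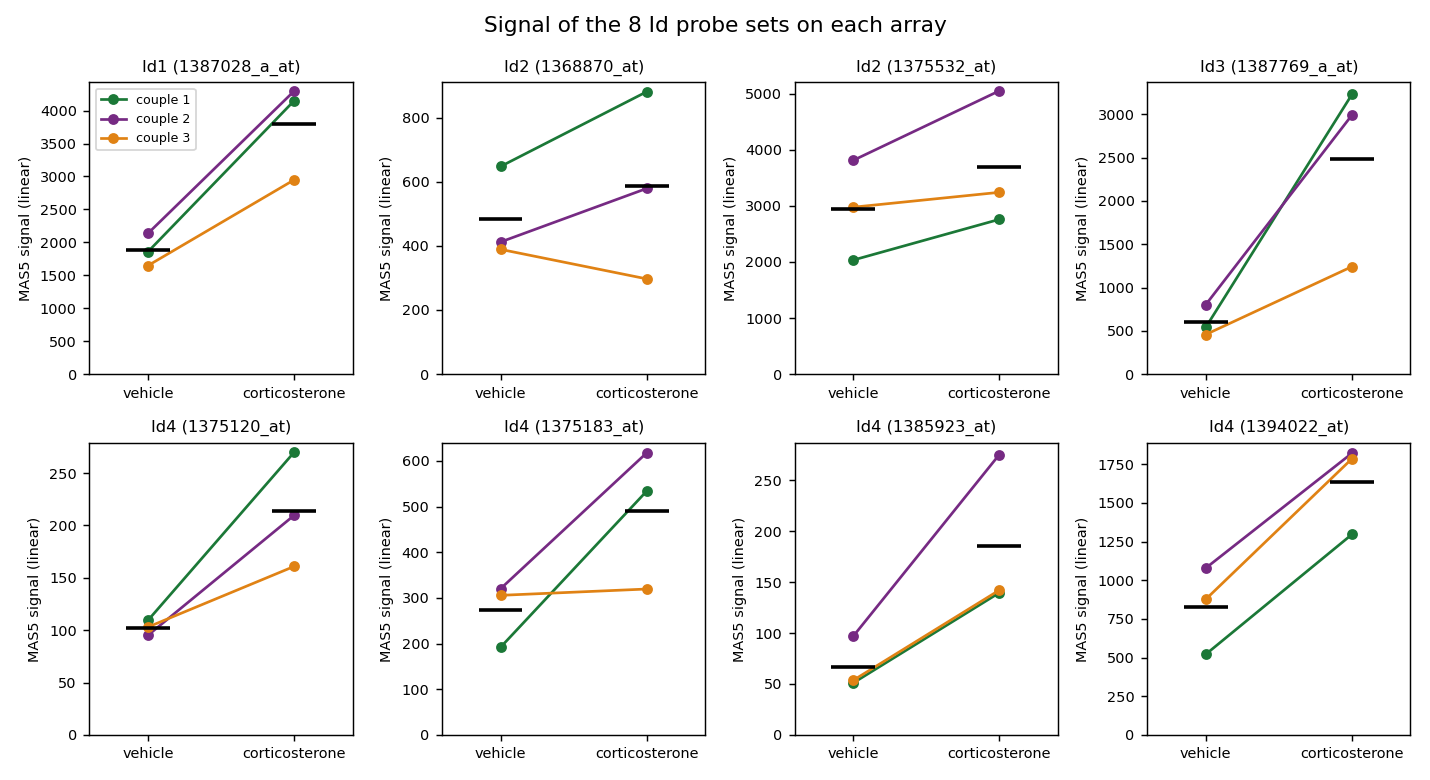
Signal (linear MAS5 units, y axes from 0) of each of the 8 Id probe sets on the 3 vehicle and 3 corticosterone arrays. Lines join the arrays of a couple and black bars are group means. Groups are apart for Id1, Id3 and 3 of the 4 Id4 probe sets, and overlap for both Id2 probe sets and for 1375183_at of Id4.

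Over the 8 probe sets and 3 couples, 23 of 24 within-couple changes lay above 0. In limma 7 of the 8 probe sets passed an adjusted p of 0.05, with 7 higher and 0 lower, and the exception was 1368870_at of Id2. Of all probe sets tested 15.9% passed, 9.4% as higher and 6.45% as lower. Signals were higher in each of the 3 couples for 7 of the 8, against 25.2% of all tested. Groups did not overlap for 5 of the 8, against 12.5% of the probe sets tested that had each corticosterone signal above each vehicle signal. Since the family was chosen by this contrast, nothing is read from these counts. Without the couple as a block 2 of the 8 passed, against 2.24% of all probe sets tested. Without couple 1, 5 passed (9% of all), without couple 2, 4 (6.4%), and without couple 3, 8 (15.1%).

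The change was smallest in couple 3 for 7 of the 8 probe sets, and largest in couple 1 for 6. Other probe sets called higher also changed least in couple 3. Over these 1744 probe sets the median log2 change was 0.72, 0.63 and 0.47 in couples 1, 2 and 3, and couple 3 held the smallest change for 61.4% of them. For the 1202 called lower the medians were −0.46, −0.40 and −0.31.

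**Figure D2:**
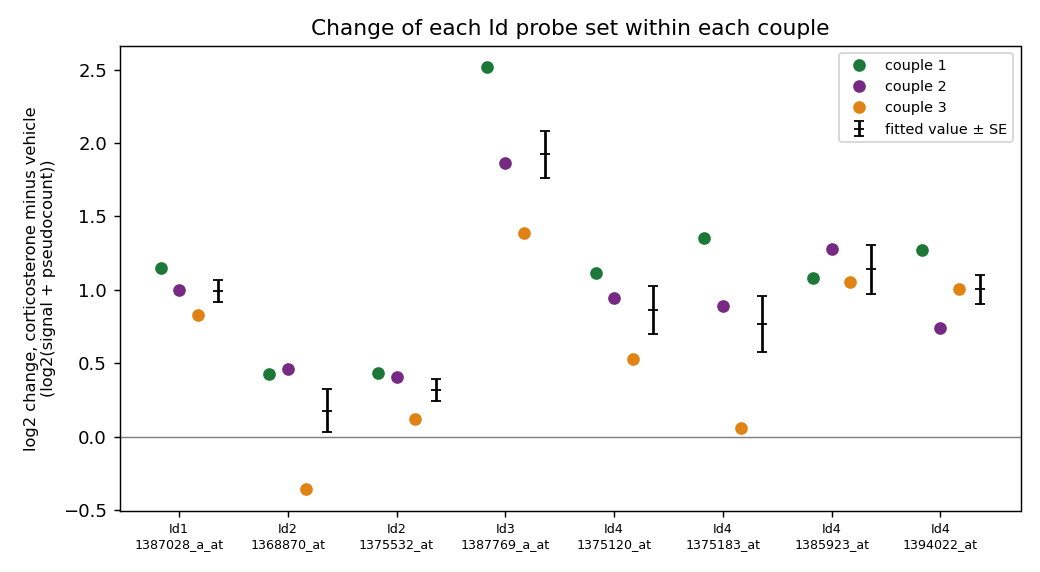
Log2 change from vehicle to corticosterone within each couple (coloured points) for each Id probe set, with the fitted value and its SE in black. Id3 spans 1.39 to 2.52, Id1 0.83 to 1.15, and the Id2 probe sets lie nearest 0, with 1 value at −0.36.

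With 1 probe set per gene, the brightest, Id3 had the 39th largest log2 change among 9910 genes, Id4 the 239th and Id1 the 246th, and Id2 the 1487th. Put as shares, 0.383% of genes had a larger change than Id3 and 2.47% than Id1. The median log2 change was −0.002 over the 9910 genes. When each array was centred on its median instead, the median of the probe sets tested moved to −0.11 from −0.004, and Id3, Id1 and the bright Id4 and Id2 probe sets read 1.82, 0.89, 0.90 and 0.21.

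**Figure D3:**
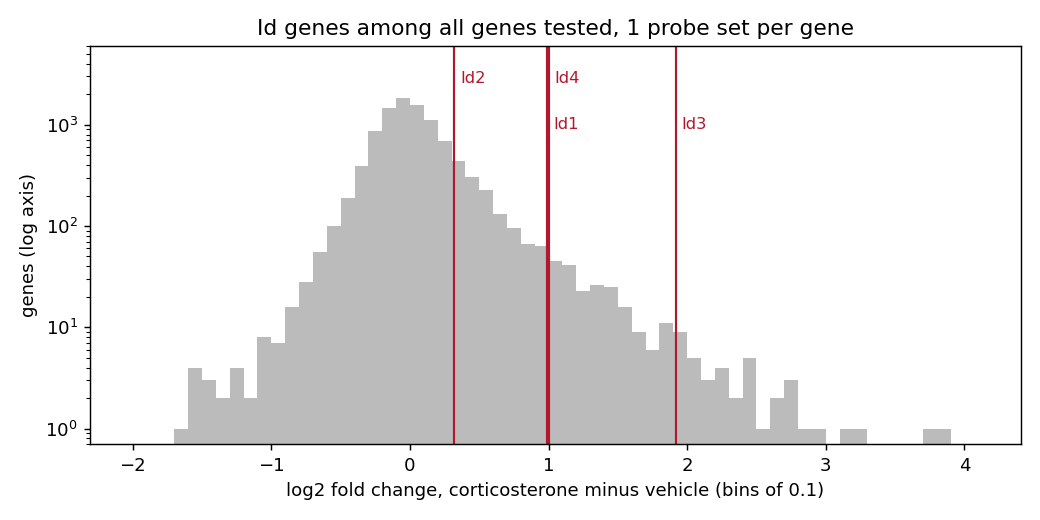
Number of genes (log axis) by log2 fold change in bins of 0.1, with 1 probe set per gene and 9910 genes in all. Red lines mark Id2 at 0.32, Id1 at 0.99, Id4 at 1.00 and Id3 at 1.92.

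The vehicle arrays, taken after the same 48 h, differed in Id signal between the 3 couples. The highest vehicle signal was 1.30 times the lowest for Id1, 1.75 times for Id3, 1.66 and 1.87 times for the Id2 probe sets, and from 1.15 to 2.07 times for those of Id4. The median of this ratio over the 18625 probe sets tested was 1.27. Signals of different probe sets are not compared here as levels, since probes bind with different strength.

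Likeness of profile was measured by Pearson's r of log2 signals over the 6 arrays, which share the treatment and the couples and give a description only. Id1 and Id3 followed each other at r = 0.99. The 2 Id2 probe sets had r = −0.26 with each other. For likeness to other genes the brightest probe set stood for each Id gene, 1375532_at for Id2 and 1394022_at for Id4. The other probe sets of these 2 genes were not searched. Among 9906 other genes, 665 had r above 0.9 with Id1, 641 with Id3, 393 with Id4 and 286 with Id2, so a high r was common over these 6 arrays.

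The genes most like Id1 were Ctsa, the lysosomal protective protein (r = 0.999), the annexin Anxa11 (0.999), Stmp1 (0.997), the lysosomal membrane protein Lamp1 (0.997) and the small heat shock protein Cryab (0.997). For Id3 they were the glycophorin Gypc (0.999), the leukotriene synthase Ltc4s (0.995), Cryab (0.995), prosaposin, Psap (0.995), and Ctsa (0.994), so Ctsa and Cryab stood in both lists. The ephrin Efnb1 (0.999), the adhesion protein Kirrel3 (0.997), Shisa9 (0.994), Nudt2 (0.994) and Zfp579 (0.993) were most like Id4. Nearest to 1375532_at of Id2 were the smooth muscle protein Smtn (0.998), the zinc transporter Slc30a4 (0.997), the Ets factor Etv4 (0.994), the dystrobrevin Dtna (0.992) and the kinase Gsk3a (0.988).

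The 3 E protein genes encode the main binding partners of Id proteins. Of these 0 passed in limma at an adjusted p of 0.05, and 0 had an unadjusted p under 0.05. Of all 9910 genes 19.5% passed, 11.7% higher and 7.77% lower, and these shares apply to each list count below. Tcf4 read 6979, 8793 and 8054 with vehicle and 6326, 8275 and 8645 with corticosterone. Its log2 change was −0.04, with a 95% interval from −0.18 to 0.10. Tcf12 changed by −0.04 (−0.21 to 0.13), and Tcf3, with the dimmest signals, by 0.15 (−0.13 to 0.44).

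Tissue-restricted bHLH factors that work with E proteins were mostly dim. Of 16 such neural factors 11 were on the array under 1 symbol and 4 were tested, of which 0 passed in limma (1 was lower with an unadjusted p under 0.05). Olig2, which specifies oligodendrocyte precursors, read 1327, 856 and 929 and then 760.1, 644 and 949, a log2 change of −0.38 (limma adjusted p = 0.066). The change of Olig2 was −0.59 without couple 3 (adjusted p = 0.0080), −0.18 without couple 1, and −0.49 after median centring (adjusted p = 0.029). Its relative Olig1 read 18443 ± 1543 and 17472 ± 2793 (−0.09, adjusted p = 0.35). The neurogenic factors Neurog1, Neurog2, Neurod1 and Neurod2 lay below the filter, so their direction was not tested here. These 4 are named after their values were seen.

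Among the Hes, Hey and Bhlhe4 genes, most of which encode bHLH repressors that bind DNA, 3 of 8 rose and 5 did not pass. Of all 9910 genes 19.5% passed, 11.7% higher and 7.77% lower. Bhlhe41, a repressor also known from the circadian clock, rose from 94.2, 118 and 57.0 to 305, 377 and 201, with no overlap (log2 change 1.45 ± 0.14, SE; limma adjusted p = 8.5e-05). Hey1, a Notch and BMP target, rose by 0.70 (adjusted p = 0.0045), and Hes6, which counteracts Hes1, by 0.21 (adjusted p = 0.037). The Notch effector Hes1 read 589 ± 131 and 608 ± 202 (0.01, adjusted p = 0.98), and Bhlhe40 changed by −0.12 (adjusted p = 0.64). Over the 15 bHLH genes tested the median log2 change was −0.04, and 3 were higher and 0 lower, or 2 higher and 1 lower (Olig2) after median centring. With that centring 22% of all probe sets tested passed, and 30.4% of those passing were higher, against 59.3% in the main fit. Bhlhe41 passed under each alternative that tested it, and was not tested with the dimmest 60% left out. Hey1 did not pass without couple 2 (adjusted p = 0.083), the block (0.28) or the intensity trend (0.079). Hes6 did not without couple 1, 2 or 3 (0.13, 0.19 and 0.076) and under 4 other settings.

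Upstream, genes of the BMP and TGF-beta pathway moved in both directions: of 36 tested, 9 rose, 3 fell and 24 did not pass. Of all 9910 genes 11.7% rose and 7.77% fell. The median log2 change of the 36 was 0.15. After centring on the median 8 rose and 5 fell. Of all probe sets tested 22% passed after centring, and 30.4% of those passing were higher, against 59.3% in the main fit. Without the couple as a block 3 passed, Fst, Fstl1 and Skil, and without couple 2, 6 did. Of the ligands 0 of 7 tested passed in limma (1 was higher with an unadjusted p under 0.05). Bmp7 read 1078, 1003 and 1229 with vehicle and 1249, 1121 and 1459 with corticosterone, a log2 change of 0.20 (adjusted p = 0.097). Bmp1, a protease of the same name that matures procollagens, changed by 0.15 (adjusted p = 0.35), and its most variable probe set by 0.52 (0.032).

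Bmp2 lay below the filter and was not tested. It is named after its values were seen: 27.0, 25.5 and 38.5 with vehicle and 129.7, 153 and 49.7 with corticosterone. Couple 3 showed the smallest difference. Bmp4, below the filter too, averaged 43.7 ± 8.14 and 36.7 ± 16.2.

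Of 7 receptors tested, 1 fell and 6 did not pass. Acvr1, a type I receptor for BMPs, fell from 988, 1087 and 1184 to 776, 951 and 901 (log2 change −0.30, limma adjusted p = 0.030). It did not pass without couple 1, 2 or 3 (0.13, 0.077 and 0.11), and its other probe sets did not pass in the main fit. The BMP receptor Bmpr1a read 1018 ± 56.1 and 1152 ± 276 (0.15, adjusted p = 0.40, and 0.31 with 0.047 without couple 3), and Tgfbr1 changed by −0.04 (adjusted p = 0.72).

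Among 6 Smad genes 2 rose. Smad3, which transmits activin and TGF-beta signals, went from 230.3, 325 and 218 to 389.6, 416 and 391 (log2 change 0.60 ± 0.13, SE; limma adjusted p = 0.0080), without overlap. Smad1, which transmits BMP signals, rose by 0.26 (adjusted p = 0.032). That call was lost without couple 1, 2 or 3 (0.19, 0.055 and 0.083) and after median centring (0.17). The other Smad1 probe set, the more variable, read 0.32 (limma adjusted p = 0.072). The common partner Smad4 changed by 0.01 (adjusted p = 0.95) and Smad5 by −0.22 (adjusted p = 0.052), which passed after median centring (−0.33, adjusted p = 0.015) and with the dimmest 60% left out (adjusted p = 0.049). Smad9, named after its values were seen, changed by 0.63 (limma adjusted p = 0.055) and was higher in each couple. Without couple 3 it passed (0.86, adjusted p = 0.016).

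Inhibitors of the pathway included Fst and Fstl1, which had the largest changes among its tested genes, and 5 of 11 rose while 1 fell. Follistatin, Fst, which traps activins and some BMPs, rose from 23.9, 57.3 and 28.0 to 274, 243 and 147 (log2 change 1.94 ± 0.21, SE; limma adjusted p = 1.6e-04). The follistatin-like protein Fstl1 rose from 1440.4 ± 330.3 to 3115 ± 567 (1.11, adjusted p = 4.6e-05), and Htra1, a secreted protease that dampens TGF-beta family signals, by 0.89 (adjusted p = 0.0016). Noggin, Nog, a BMP trap, rose by 0.59 (adjusted p = 0.027), and Tob1, an antiproliferative Smad partner, by 0.53 (adjusted p = 0.0031). Skil, which represses Smad target genes, fell from 2796, 2494 and 2599.6 to 1572, 1604 and 1905 (−0.63, adjusted p = 4.3e-04). Twsg1 and Nbl1 changed by 0.06 and 0.23 (adjusted p = 0.67 and 0.064), and the most variable probe set of Twsg1 by 0.36 (adjusted p = 0.039). Nog did not pass without couple 1 or 2 (0.12 and 0.17) nor with quantile normalization (0.052), and Tob1 not without couple 2 (0.051).

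Of other genes known as BMP-Smad targets 6 were tested, and 2 rose, 1 fell and 3 did not pass, with a median log2 change of 0.31. Besides Hey1, the homeobox repressor Tgif1 rose from 1651, 1446 and 1265 to 2559, 2139.8 and 1855 (0.57, limma adjusted p = 2.9e-04), without overlap. Klf10, a zinc finger gene induced by TGF-beta, fell from 6025 ± 452 to 4615 ± 939.9 (−0.40, adjusted p = 0.0090, and 0.13 without couple 2). Atoh8 and Junb changed by 0.32 and 0.30 (adjusted p = 0.16 and 0.36). The classical targets Smad7, Bambi, Msx1 and Msx2 lay below the filter, and the inhibitory Smad6 changed by −0.40 (adjusted p = 0.24); these 5 are named after their values were seen.

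Cell cycle inhibitors whose promoters E proteins can activate, and which Id proteins can thereby hold down, were higher in 4 of 6 cases with 0 lower (median log2 change 0.43). Of all 9910 genes 11.7% were higher and 7.77% lower. Cdkn2b, which encodes p15, rose from 6.19, 80.0 and 27.8 to 158, 279 and 94.3 (1.68 ± 0.25, SE; limma adjusted p = 0.0010). Cdkn1a, which encodes p21, rose from 1025, 1494 and 1232 to 1444, 2455 and 1724 (0.55, adjusted p = 7.3e-04), with the groups overlapping but each couple higher. Cdkn2a and Cdkn2c rose by 0.66 and 0.31 (adjusted p = 0.015 and 0.013). Cdkn1b and Cdkn1c changed by −0.12 and 0.02 (adjusted p = 0.17 and 0.90), and Cdkn1b by −0.23 after median centring (adjusted p = 0.022). With no block for the couple 0 of the 6 passed in limma (4 were higher with an unadjusted p under 0.05), and Cdkn2a and Cdkn2c did not pass without couple 1 (0.10 and 0.087) or couple 2 (0.11 and 0.072).

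Proteins outside the bHLH class that can bind an Id protein moved both ways, with 1 of 8 higher and 2 lower. Ets1 and Ets2, transcription factors that Id proteins can block, fell by 0.50 and 0.39 on the log2 scale (limma adjusted p = 0.011 and 0.034), and the Ets-domain repressor Elk3 rose by 0.40 (adjusted p = 0.014). Rbl1 and Elk4 changed by −0.03 and −0.19 (adjusted p = 0.86 and 0.16), and Elk4 by −0.30 after median centring (adjusted p = 0.042). Over these and the cell cycle inhibitors 7 of 14 passed, against 3 without couple 1 and 2 without couple 2. Of all probe sets tested 15.9% passed, against 9% without couple 1 and 6.4% without couple 2. Ets1 did not pass without couple 1 or 2 (0.085 and 0.083), Ets2 without couple 1, 2 or 3 (0.19, 0.082 and 0.093) nor Elk3 without couple 2 (0.16). The other Elk3 probe sets did not pass in the main fit, the most variable reading 0.37 (limma adjusted p = 0.20). After median centring 4 of the 14 were higher and 4 lower. Centring left 22% of all probe sets passing, 30.4% of them higher, against 59.3% in the main fit.

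**Figure D4:**
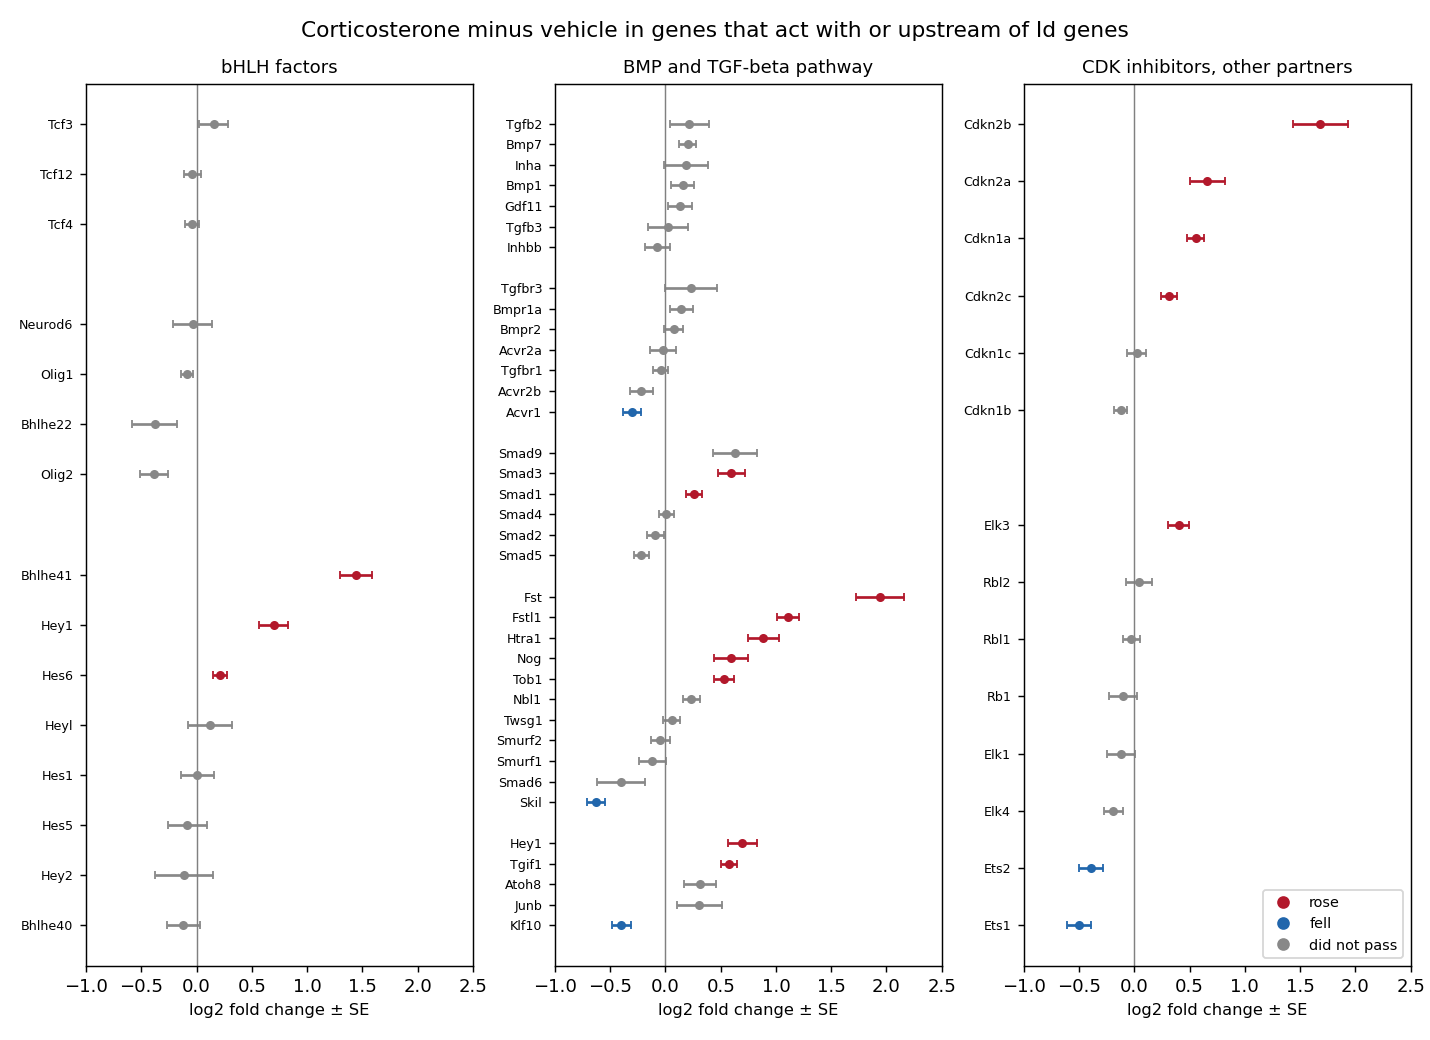
Log2 fold change with its SE (x axes, corticosterone minus vehicle) of the tested bHLH, BMP and TGF-beta pathway, cell cycle inhibitor and other partner genes, 1 probe set per gene, blocks separated by sub-list. Red genes rose, blue genes fell and grey genes did not pass; the E proteins at the top left lie between −0.04 and 0.15, and Fst at 1.94 lies furthest right.

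Markers of the labelled cell type differed in brightness, with vehicle means from 234 (Hes5, the lowest) to 25055 (Vim). The 8 progenitor markers on the array were tested, led by Vim (25055 ± 4387 with vehicle and 27456 ± 2868 with corticosterone) and Fabp7 (22147 ± 1684 and 22155 ± 844), and 1 of them, the progenitor filament gene Nes, rose (0.26, limma adjusted p = 0.019). Their summed signal lay between 56354 and 68101 with vehicle and between 62247 and 68962 with corticosterone. Nes did not pass without couple 1, 2 or 3 (adjusted p = 0.063, 0.076 and 0.085). After median centring 0 of the 8 rose and 1 fell: Nes was at 0.15 (adjusted p = 0.16), and Prom1, a membrane protein of progenitors that is named after its values were seen, at −0.42 (adjusted p = 0.038). Of all probe sets tested 22% passed after centring, and 30.4% of those passing were higher. Before centring Prom1 read 578, 418 and 482 with vehicle and 367, 363 and 438 with corticosterone, lower in each couple (−0.31, adjusted p = 0.10).

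Of the markers of astrocytes, which express Id genes, 5 were tested. Of these 4 rose and 1 did not pass, while 11.7% of all 9910 genes rose. The summed signal of the 9 on the array lay between 16719 and 23132 with vehicle and between 31423 and 36912 with corticosterone, with no overlap. Most of that sum came from Slc1a3 (means of 13306 with vehicle and 18561 with corticosterone) and Gja1 (5668 and 10939). S100b, a calcium-binding protein, read 129, 199 and 198 and then 745.5, 676 and 607 (log2 change 1.80, limma adjusted p = 2.8e-05). The brain aldolase Aldoc rose by 1.60 (adjusted p = 9.2e-05), the gap junction gene Gja1 by 0.96 (2.8e-05) and the glutamate transporter Slc1a3 by 0.49 (5.4e-04). Gfap, the astrocyte filament, stayed dim at 50.3 ± 8.19 and 98.9 ± 66.8 (adjusted p = 0.13), Aqp4 lay below the filter and Gjb6 at or under background on the 6 arrays. Without the couple as a block 2 of the 5 passed. Their part in the Id values was not tested.

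Endothelial cells, which are rich in Id1 and Id3, left little signal. Of 8 endothelial markers on the array 0 passed the filter, and their summed signal lay between 135 and 191 with vehicle and between 172 and 287 with corticosterone. Pecam1 read 3.75 ± 1.57 and 16.4 ± 15.8, and Vwf, alone of the 8, lay at or under background on the 6 arrays. These genes had the lowest vehicle means of the 8. Flt1 had the highest vehicle mean, 44.0 against 50.5 with corticosterone, and Kdr averaged 32.7 and 32.3, all above the background of 22.8. Cldn5 averaged 13.7 with vehicle and 41.0 with corticosterone. The endothelial genes are named after their values were seen, and their changes were not tested. Mural and meningeal markers were sparse but uneven: of 4 tested 2 rose, and 8 lay below the filter. Acta2 rose by 1.03 (limma adjusted p = 0.0027, and 0.053 without the intensity trend). Col1a2 rose by 0.99 (limma adjusted p = 0.013). That call was lost without couple 2 (0.12), the block (0.70), the filter (0.071) or the intensity trend (0.075). The other Col1a2 probe set did not pass in the main fit. Col1a1 and Col3a1 changed by 0.24 and 0.35 (limma adjusted p = 0.50 and 0.33), and Col3a1 by 0.74 without couple 3 (adjusted p = 0.011). The sum of the mural and meningeal markers lay between 437 and 1640 with vehicle (1639.5 in couple 2) and between 652 and 3082 with corticosterone (3082 in couple 2).

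Of 3 microglia markers tested 1 rose, Cd14 (1.09, limma adjusted p = 0.0043, 0.071 without couple 2 and 0.057 without the block), with sums between 285 and 318 and between 443 and 613. Aif1 and Cd68 changed by 0.13 and 0.03 (limma adjusted p = 0.74 and 0.93). Of 8 neuron markers 0 rose and 2 fell, Nefm and Tubb3 (−0.80 and −0.52, adjusted p = 0.024 and 0.034), with sums between 13284 and 14685 and between 11595 and 13984. Nefm did not pass without couple 1 or 2 (0.17 and 0.073) nor Tubb3 without couple 2 or 3 (0.14 and 0.18). Map2 and Gap43 changed by −0.22 and 0.11 (limma adjusted p = 0.14 and 0.50). Without couple 3 both passed, Map2 as lower (−0.36, adjusted p = 0.037) and Gap43 as higher (0.28, adjusted p = 0.04998). Map2 also passed after median centring (−0.33, adjusted p = 0.042). Of 3 oligodendrocyte lineage markers 2 fell, Pdgfra (−1.64, limma adjusted p = 2.9e-05) and Cnp (−0.30, adjusted p = 0.032). Pdgfra read 2892, 538 and 2970 with vehicle and 633, 214 and 1000 with corticosterone. It was lower in each couple, but the groups overlapped, and its call was lost when no block was fitted (limma adjusted p = 0.28). Cspg4 changed by −0.22 (adjusted p = 0.46) and was higher in couples 2 and 3. Cnp did not pass without couple 1 or 3 (0.24 and 0.077), and its other probe set read −0.15 (adjusted p = 0.49). The sums lay between 2687 and 6198 with vehicle and between 2230 and 3786 with corticosterone. The part of these cell types in the Id values was not tested.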

How the data were processed

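The authors deposited 1 table with the linear signal intensity of each probe set, 1 column per array, made with MAS5 per the submitters' processing notes; its version and settings are not stated in the labels. MAS5 subtracts background and summarises perfect-match against mismatch probes, and the equal trimmed means show that each array was scaled. Per the labels' protocols, labelled RNA was primed with oligo(dT) from 3 µg of total RNA, which weights signals to the 3′ end.

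Of 31099 probe sets, 57 controls were left out. The platform annotation gave 1 symbol for 20826, several for 436 and none for 9780, and no gene was named from the latter groups. Intensities were analysed as log2(signal + 28.6), the 25th percentile of all values being the pseudocount, so folds of dim genes are understated. The dimmest 40% (mean signal under 63.6) were dropped. limma 3.58.1 in R 4.3.3 (lmFit, eBayes with an intensity trend) fitted treatment and couple over 18625 probe sets, two-sided, with Benjamini-Hochberg adjustment and a threshold of 0.05. The fit was tested on simulated data. One probe set, the brightest, stood for each gene of a list.

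Couples come from the series design text. Within couples, the 2 arrays' deviations from their group means had correlations of 0.57, 0.52 and 0.35, and between couples of −0.48 to 0.003, so the couple was kept as a block.

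The members, the gene lists and the tests were chosen with earlier results of these data known. Named genes are the Id probe sets, the E proteins, those of each list past the threshold (at most 6) and up to 2 bright ones that were not, and the 5 genes most like each Id gene; exceptions are stated. Promoter sequences come from RefSeq (GRCr8), where the 4 Id genes matched by symbol. Alternatives were no block, leaving out each couple, other pseudocounts and filters, quantile normalization, median centring, no trend, and the most variable probe set per gene.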

Additional observations from a re-analysis of the deposited data

How the results depend on the processing

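The log2 change of the 8 Id probe sets stayed above 0 in each alternative that tested them, between 1.62 and 2.19 for Id3, 0.89 and 1.07 for Id1, 0.47 and 1.26 over those of Id4, and 0.03 and 0.45 over those of Id2. With a pseudocount of 100 the dim Id4 probe set 1385923_at read 0.75 in place of 1.14, because a larger pseudocount shrinks dim signals, and 2 dim Id4 probe sets were not tested with the dimmest 60% left out. Without the replicate block, limma passed 2 of the 8 Id probe sets, 1 bHLH gene, 3 BMP and TGF-beta pathway genes and 0 of the 14 cell cycle inhibitors and other partners (7 with an unadjusted p under 0.05, 5 of them higher); the couples' correlated deviations then count as noise. Without the intensity trend 5 of the 8 Id probe sets, 1 bHLH gene, 7 pathway genes and 3 of the 14 passed, and the cause was not tested. With 1 couple left out, where each group keeps 2 arrays, the counts ranged from 4 to 8 Id probe sets, 1 to 3 bHLH genes, 6 to 12 pathway genes and 2 to 7 of the 14. The other settings kept these counts near the values in the report. Of all probe sets tested, 15.9% passed in the main fit, 2.24% without the block and 6.78% without the trend. With 1 couple left out, between 6.4% and 15.1% of all probe sets passed. The limits are 3 couples, 1 array per sample, and dim signals, below the filter, for 10 of 17 ligands, the neurogenic factors and the endothelial markers, whose changes were not tested.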
